A study of Mus musculus with 9 samples.

Results

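The 87 protein-coding genes of the mouse cytoplasmic ribosome were followed in bulk RNA sequencing of colon. They were taken by symbol from a table of 45777 genes: Rps or Rpl followed by a digit, Rpsa, Rplp0, Rplp1 and Rplp2, leaving out the Rps6k kinases, Rps19bp1 and rows marked as pseudogenes. Of these genes, 54 carried large-subunit names (Rpl) and 33 small-subunit names (Rps), and 84 had enough reads to be tested. The 9 libraries came from wild-type mice in 3 groups of 3. CT mice ate a normal diet, IM mice ate that diet with a hindlimb cast for 10 days, and IM-HYA mice wore the cast for 10 days on a diet containing HYA, an abbreviation that the labels leave unexplained. No group received HYA without a cast, so the diet could be compared only among cast mice. The labels give no strain or age, and they number the replicates without tying them to separate animals. The p-values below therefore describe library-to-library spread, part of which may be technical.

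Each ribosome carries a single copy of most of its proteins, so the genes of the small and large subunits are transcribed at high and roughly matched rates and their mRNAs are among the most abundant in a dividing tissue such as gut epithelium. The mRNAs begin with a run of pyrimidines directly at the cap (the terminal oligopyrimidine, or TOP, motif), through which mTOR and the binding protein Larp1 set their translation and stability as a class. Proteins made in excess of rRNA are degraded, and a few of them, such as Rpl5 and Rpl11, bind Mdm2 and so link ribosome assembly to p53.

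Start-site sequences are shown for genes at both ends of the order described below, because these members differed most from each other across libraries, and for Rpl39, one of the members with the smallest p. Of the 87 genes, 67 had a promoter entry in RefSeq (build GRCm38.p6). Each line gives the 15 bases before and the 15 bases from the annotated start of the gene's first listed promoter entry. For Rpl38 and Rpl5 that start lies downstream of the annotated gene start (chr11:114667818 and chr5:107900508), so their windows do not show the gene start. Lines run 5′ to 3′ on the coding strand, and capitals mark the longest run of C and T that begins with C where that run has at least 5 bases.
Rplp2: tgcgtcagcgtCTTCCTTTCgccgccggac
Rpl38: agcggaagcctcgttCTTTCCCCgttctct
Rps27rt: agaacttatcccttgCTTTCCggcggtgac
Rps21: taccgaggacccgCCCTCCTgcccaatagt
Rpl5: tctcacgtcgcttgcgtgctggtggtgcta
Rpl6: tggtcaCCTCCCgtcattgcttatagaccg
Rpl4: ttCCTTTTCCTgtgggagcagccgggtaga
Rpl15: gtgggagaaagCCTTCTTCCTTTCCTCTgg
Rpl39: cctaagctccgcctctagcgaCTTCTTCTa
The windows lie at chr7:141447636-141447665 (Rplp2), chr11:114668565-114668594 (Rpl38), chr2:180257364-180257393 (Rps21), chr5:107900513-107900542 (Rpl5), chr5:121204486-121204515 (Rpl6) and chr9:64173372-64173401 (Rpl4) on the plus strand, and at chr9:114982725-114982754 (Rps27rt), chr14:18270972-18271001 (Rpl15) and chrX:37085208-37085237 (Rpl39) on the minus strand. The run covered 17 bases in Rpl15, 9 in Rplp2 and Rpl4, 8 in Rpl38 and Rpl39, 7 in Rps21 and 6 in Rps27rt and Rpl6, and the longest in Rpl5 had 3. It began on the first base of the entry used in Rpl38 and Rps27rt and up to 13 bases before it in Rpl4. Such runs of at least 5 bases within this window were found in 41 of the 67 genes (61.2%), against 36.4% of 27025 promoters in the same RefSeq table. The motif CCGGAAG, searched on either strand from 250 bases before to 50 after the start, was found in 25 of 67 (37.3%) against 9.12% of all promoters. AAGATGGC, searched the same way, was in 5 of 67 (7.46%) against 2.88%, and TATAAA on the coding strand between 40 and 15 bases before the start was in 1 of 67 (1.49%) against 2.22%. A match is a description of letters in these windows, and runs sat in genes at both ends of the order below.

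Library totals ran from 19638401 to 42917198 counts, and marker genes showed unequal tissue content. All 10 epithelial markers were read in every library, at a mean log2 CPM (counts scaled to a common library total) of 9.41 to 10.2, and all 8 smooth muscle markers at 8.42 to 9.82. In CT 2, 29.6% of counts fell on 15 pancreatic acinar genes, against at most 0.506% elsewhere, and its composition-based scaling factor (TMM) was 0.473 against 0.893 to 1.26 in the others. The summed level of those genes ran from 336 to 628541 CPM in CT, from 125 to 5206 in IM and from 182 to 430 in IM-HYA, where 6 to 13 of the 15 had a read and Prss1 and Cpa1 were among those at 0 in some library. Fat and lymphocyte markers were highest in IM 3: the 10 adipocyte genes summed to 272 to 3628 CPM in IM and to 103 to 281 in the other groups, the 9 T cell genes to 14.6 to 194 against 8.90 to 13.8, and the 8 B cell genes to 14.8 to 757 against 28.5 to 75.1. The rRNA-derived gene Rn18s-rs5 took 2.88% to 23.2% of counts. For 8 distal Hox genes, which mark the lower colon, mean log2 CPM was 3.36, 2.22 and 1.27 in CT, 3.93, 0.36 and -0.68 in IM and 3.76, 1.07 and 3.55 in IM-HYA, with Hoxd13 and Hoxa13 at 0 in some IM library.

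Ribosomal protein mRNAs were among the most abundant transcripts in all libraries. On the deposited TPM scale, which divides by transcript length, the median member had a mean of 1568, against 1.24 for genes with at least 1 read. A mean TPM of at least 1000 was reached by 61 members and of at least 100 by 80. The 5 highest were Rplp1 (8823 TPM), Rpl41 (5950), Rplp2 (5829), Rps29 (4692) and Rps9 (4237). Rplp1 and Rplp2 encode the acidic stalk proteins that recruit elongation factors to the large subunit, Rpl41 the shortest ribosomal protein, and Rps29 and Rps9 proteins of the small subunit. The ribosome carries the acidic stalk pair in more than a single copy, unlike the other proteins.

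**Figure D1:**
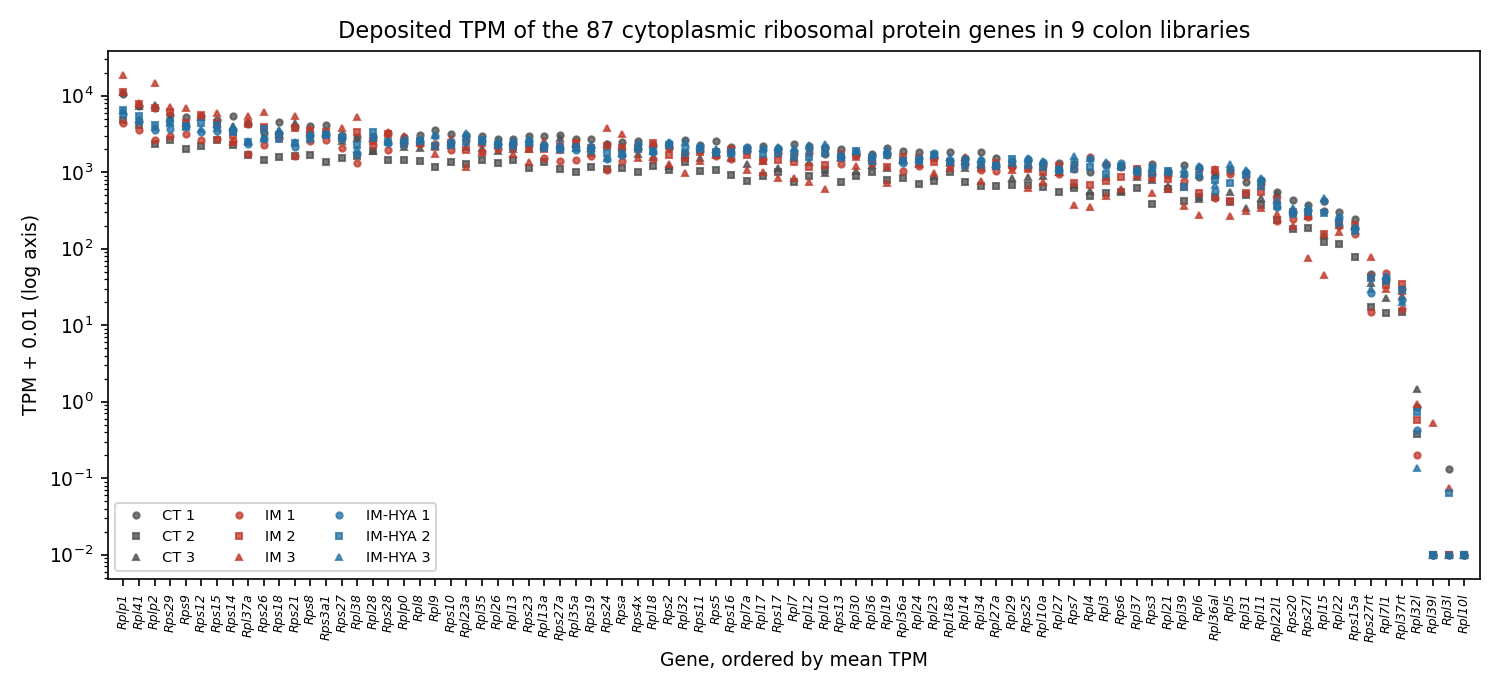
Deposited TPM (log axis, with 0.01 added so that zeros can be drawn) of the 87 cytoplasmic ribosomal protein genes, ordered by mean TPM, with 1 point per library. Of the 87 genes, 80 lie at 100 TPM or higher, Rplp1 and Rplp2 spread more between libraries than their neighbours, and 7 genes at the right lie under 50.

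Only 7 members had a mean TPM under 50, and all of them are paralogs or retrogene-type copies of another member: Rps27rt (36.7), Rpl7l1 (34.4), Rpl37rt (24.1), Rpl32l (0.626), Rpl39l (0.0576), Rpl3l (0.0267) and Rpl10l. Rpl10l, the testis copy of the X-linked Rpl10, had 0 counts among 297008168, which allows a level of up to 0.0101 CPM (a limit of 3 counts, for counting error only). Rpl3l, the heart and skeletal muscle form of Rpl3, had 14 counts in all, and Rpl39l, the testis form of the exit-tunnel protein Rpl39, had 6, all of them in IM 3. These 3 genes were the members left untested.

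Between paralogs that were both expressed, the split varied by pair. Rpl22l1 supplied more TPM than Rpl22 in every library, 53.9% of the pair in IM 1 and 71.7% in CT 3. Rpl36al, a copy of Rpl36a, supplied 30.0% to 42.7% of its pair, lowest in IM-HYA 1 and highest in IM 3. Rps27l, a p53-inducible paralog of Rps27, supplied 8.60% to 11.1% in 8 libraries and 1.96% in IM 3. Rpl7l1 supplied 1.43% to 3.42% of the Rpl7 pair. IM-HYA (57.9% to 62.9%) lay below CT (64.3% to 71.7%) for Rpl22l1, with IM across both. For Rpl7l1 no groups overlapped, at 1.43% to 1.92% in CT, 2.38% to 3.42% in IM and 2.05% to 2.33% in IM-HYA. The groups overlapped for Rpl36al and Rps27l. Copies as close as these share reads with each other and with 227 annotated ribosomal protein pseudogenes, 189 of which had a read and which together took 0.0556% to 0.153% of counts. The sources used here do not say how multi-mapped reads and strand were handled, so counts of single members are uncertain to that extent.

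The share of a library's reads on the 87 genes did not separate the groups. It was 9.45%, 4.81% and 6.97% of counts in CT 1 to 3, 5.82%, 7.55% and 7.84% in IM, and 7.17%, 7.08% and 7.70% in IM-HYA. The means were 7.08% ± 2.32 (SD, n = 3), 7.07% ± 1.09 and 7.32% ± 0.338. CT 1 was the highest of all libraries and CT 2, the library with pancreatic reads, the lowest. Shares were also taken over protein-coding counts, leaving out the 15 pancreatic genes and the mitochondrially encoded genes. These were 10.4%, 8.17% and 9.85% in CT, 6.41%, 9.07% and 10.3% in IM, and 7.94% to 8.50% in IM-HYA. IM still overlapped both other groups. Of TPM, the 87 genes took 14.997% ± 5.63 in CT, 16.2% ± 2.84 in IM and 16.1% ± 0.641 in IM-HYA.

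**Figure D2:**
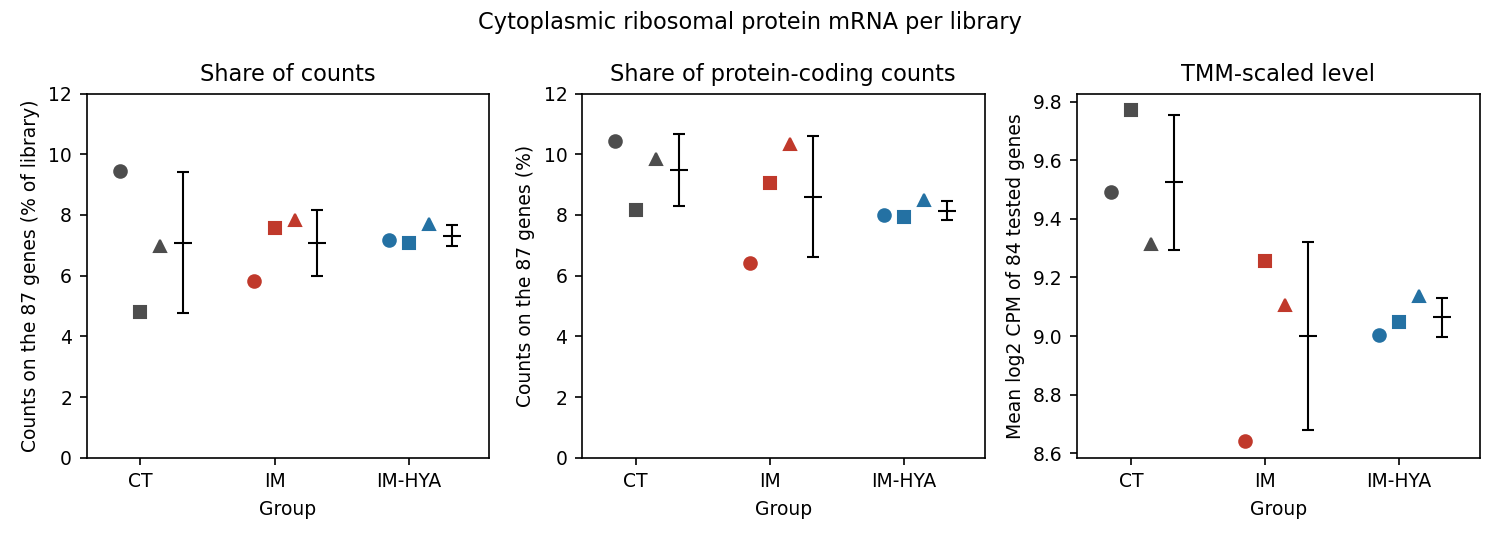
Cytoplasmic ribosomal protein mRNA in each library as a share of all counts, as a share of protein-coding counts without pancreatic and mitochondrially encoded genes (both in percent, axes from 0), and as the mean log2 CPM of the 84 tested genes after TMM scaling (axis cut). Circles, squares and triangles are replicates 1, 2 and 3, and bars are the mean ± SD of 3 libraries. The shares overlap between groups, and the scaled level is 9.31 to 9.77 in CT and 9.14 or lower in IM-HYA.

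After TMM scaling, which rescales each library for composition, the mean log2 CPM of the 84 tested members was 9.49, 9.77 and 9.31 in CT, 8.64, 9.26 and 9.11 in IM, and 9.01, 9.05 and 9.14 in IM-HYA. All IM and IM-HYA libraries lay below the lowest CT library on this scale. IM 1 was lowest and CT 2 highest. Over protein-coding counts without pancreatic and mitochondrially encoded genes, CT 2 (8.17%) was instead the lowest CT library. On that measure it also lay below IM 2 (9.07%), IM 3 (10.3%) and IM-HYA 3 (8.50%). Whether TMM scaling raised CT 2 by more than its pancreatic reads account for was not tested. The extremes rested on few libraries: CT 2 held the highest value of 59 members and IM 1 the lowest of 54, while IM 3 was at once the lowest for 26 and the highest for 12. Members spread less between the IM-HYA libraries (median SD of log2 CPM 0.11) than in CT (0.25) or IM (0.44). The median SD over all 18414 genes tested followed the same order, at 0.23, 0.35 and 0.58. In a tissue, fewer cells rich in ribosomal protein mRNA and less of it per cell cannot be told apart.

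IM was compared with CT to ask how cast immobilization relates to colon transcripts. Most ribosomal protein genes measured lower in IM, but none passed the test: 0 of 84 were called at an adjusted p of 0.05 (edgeR, quasi-likelihood, p adjusted by Benjamini-Hochberg over all genes; background, here the share of all tested genes called, 0.00543%, smallest adjusted p of a member 0.621). At an unadjusted p under 0.05, 28 members were lower (background 3.11%) and 0 higher (background 4.83%). The fitted log2 fold change was below 0 for 80 of 84 (46.4% of all genes) with a median of -0.42, against 0.04 for all genes. The 3 IM libraries lay below the 3 CT libraries for 25 members (background 4.59%) and above them for 0 (background 4.43%). With library totals in place of TMM scaling, the median of all genes was 0.43 and that of the members -0.01, so that members lay 0.44 below all genes while 0 members had IM below CT without overlap (background 0.261%). The count of 25 was 27 without CT 2 (background 9.66%), 38 without CT 2 and IM 3 (background 14.2%) and 50 without CT 3 (background 8.85%). Among members, 31 of 33 small-subunit genes (median -0.39) and 49 of 51 large-subunit genes (median -0.51) were fitted below 0.

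The member with the smallest p was Rps14, a protein of the small-subunit platform whose loss impairs red cell formation in humans. Its level was 1932 CPM in CT 1, 2175 in CT 2 and 1706 in CT 3, against 718, 1172 and 980 in IM, a log2 fold change of -1.02 ± 0.24 (SE), with an edgeR adjusted p of 0.621. After TMM scaling the groups did not overlap, and in IM-HYA it stood at 1064, 1070 and 1213, also below CT. On the deposited TPM scale CT 2 (2245) instead lay below all IM libraries (2542, 3073 and 2457). Rpl39, at the peptide exit tunnel, stood in CT at 315, 298 and 296 CPM, and in IM at 156, 178 and 104, a log2 fold change of -1.05 ± 0.25. After TMM scaling its CT libraries lay close together, and IM did not reach them. On the TPM scale Rpl39 stood at 1226, 423 and 950 in CT and at 761, 643 and 357 in IM, so that the groups overlapped. Rpl32 gave a log2 fold change of -0.997 ± 0.28 and Rpl34 -0.76 ± 0.21. Both are large-subunit proteins with IM below CT in every library after TMM scaling. DESeq2, run as an alternative, called Rps14 (adjusted p = 0.0159) and Rpl39 (adjusted p = 0.0498), 2 members at a background of 0.345%. Over the 25 alternatives the adjusted p ran from 0.0159 to 0.920 for Rps14 and from 0.0498 to 0.920 for Rpl39.

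**Figure D3:**
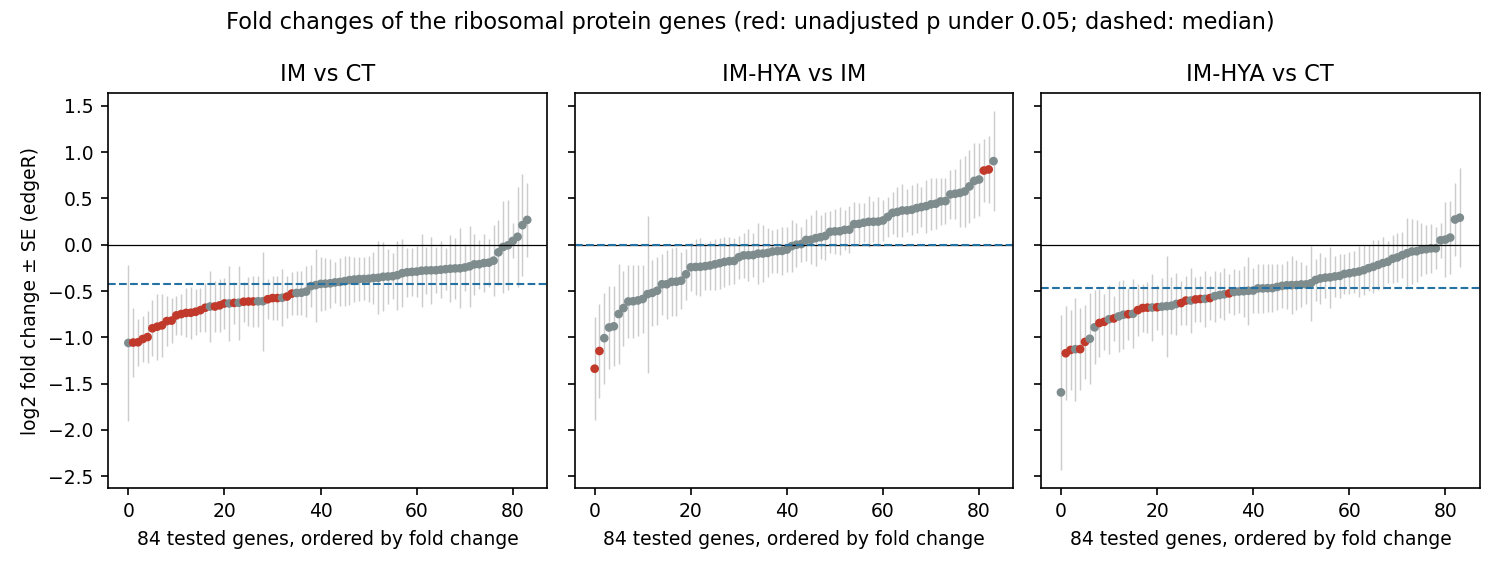
Fitted log2 fold change ± SE (edgeR) of the 84 tested ribosomal protein genes in the 3 comparisons, each ordered by fold change, with the members' median dashed and unadjusted p under 0.05 in red. The median lies at -0.42 for IM against CT, at -0.01 for IM-HYA against IM and at -0.47 for IM-HYA against CT, and no member passed the adjusted threshold.

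The 4 members fitted higher in IM than in CT differed from it by less than their SE. Rps26, next to the mRNA exit of the small subunit, gave 0.27 ± 0.40, Rplp2 0.21 ± 0.55, Rpl7l1 0.04 ± 0.19 and Rps27rt 0.09 ± 0.54 (log2, ± SE). Without IM 3 the value of Rps26 was -0.25, that of Rplp2 -0.64 and that of Rps27rt -0.66. Rplp2 stood in CT at 1859, 1756 and 2456 CPM, and in IM at 576, 2019 and 4429, so that IM held both the lowest and the highest of these libraries.

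**Figure D4:**
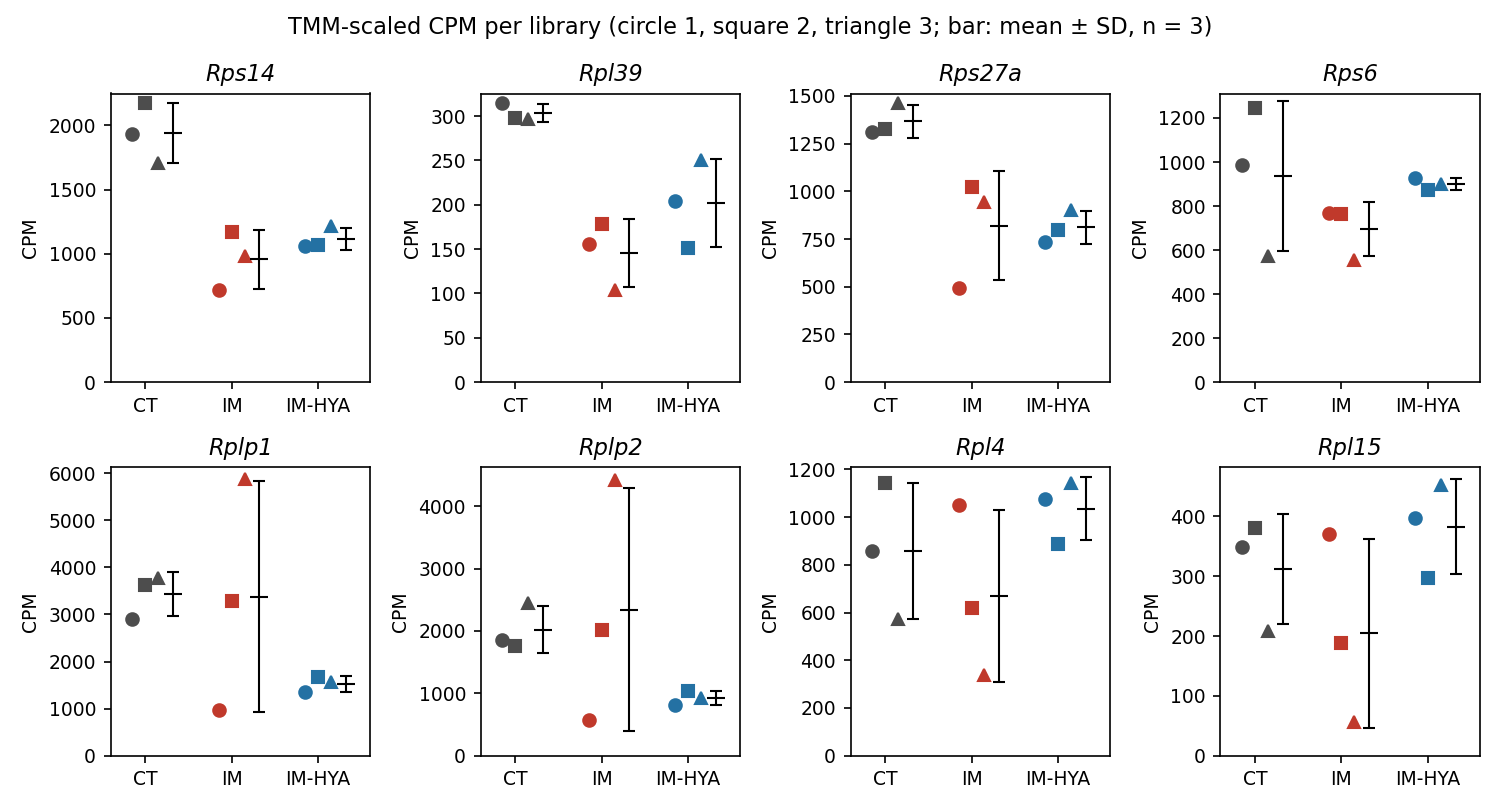
TMM-scaled CPM (linear axes from 0) of 8 ribosomal protein genes in each library, with mean ± SD of 3 libraries beside each group. Rps14, Rpl39 and Rps27a lie lower in IM and IM-HYA than in CT, whereas Rplp1, Rplp2, Rpl4 and Rpl15 spread widely within IM.

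IM-HYA was compared with IM to ask how the HYA diet relates to colon transcripts under a cast. The ribosomal protein genes were fitted in both directions: 0 of 84 were called (edgeR, background 0.0%, smallest adjusted p 0.604), 43 were fitted below 0 (51.0% of all genes) and the median was -0.01, as for all genes. With a covariate for colon position, 12 of 84 were fitted below 0 and the median was 0.16, against 0.04 for all genes. At an unadjusted p under 0.05, Rps7 and Rpl5 were higher (2 members, background 1.27%) and Rplp2 and Rplp1 lower (2 members, background 6.39%). IM-HYA lay above IM in every library for 10 members (background 5.39%) and below for 0 (background 4.3%). The count above was 29 without IM 2 (background 10.9%), 26 without IM-HYA 2 (background 13.9%) and 20 on library totals (background 5.92%). DESeq2 called 0 members (background 0.273%).

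Rps7, a small-subunit protein that also binds Mdm2, measured 504, 444 and 236 CPM in IM and 672, 579 and 810 in IM-HYA, a log2 difference of 0.80 ± 0.34. Rpl5, which carries the smallest rRNA of the large subunit, measured 625, 385 and 245 in IM and 744, 547 and 912 in IM-HYA (0.81 ± 0.36). For Rps7 the groups did not overlap, and for Rpl5 the lowest IM-HYA library lay under the highest IM library. Rpl12, at the base of the stalk, gave 0.55 ± 0.27 and Rpl19, part of a bridge between the subunits, 0.54 ± 0.27.

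The acidic stalk genes were fitted below 0. Rplp1 measured 965, 3296 and 5885 CPM in IM and 1344, 1662 and 1574 in IM-HYA, a log2 difference of -1.15 ± 0.51, and Rplp2 measured 820, 1031 and 926 in IM-HYA (-1.34 ± 0.56 against IM). IM 1 lay below every IM-HYA library and IM 2 and IM 3 above them all, for both genes. Rpl38, whose loss in mice alters translation of Hox mRNAs, gave -1.01 ± 0.49, and Rpl37a -0.88 ± 0.43. With all libraries 0 members were called, and without IM 1 the test called 7 lower in IM-HYA (Rplp2, Rplp1, Rpl38, Rpl37a, Rps21, Rps29 and Rpl36al), edgeR adjusted p from 0.0436 to 0.0496, and 4.62% of all genes tested were called in that fit. Over the 25 alternatives the adjusted p of Rplp2, Rplp1, Rpl38 and Rpl37a ran from 0.0436 to 0.9997. Without IM 1, 41 of 84 members were lower in every IM-HYA library than in the other IM libraries (24.6% of all genes) and 17 higher (26.8%).

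IM-HYA against CT shares its CT libraries with the first comparison and its IM-HYA libraries with the second, and 0 of 84 members were called in it (edgeR, background 0.00543%, smallest adjusted p 0.854; DESeq2 0 members, background 0.0822%). Fitted values were below 0 for 79 of 84 (49.4% of all genes), with a median of -0.47 against 0.01. At an unadjusted p under 0.05, 18 members were lower (background 2.89%) and 0 higher (background 2.31%). The IM-HYA libraries lay below all CT libraries for 54 members (background 11.3%) and above for 0 (background 10.8%). On library totals, where the median of all genes was 0.51, the members' median was 0.10, 0 members lay below CT without overlap (background 0.494%) and 7 lay above (background 28.0%). Without CT 2 the count below was also 54, at 18.9% of all genes, and the median was -0.32. All 33 small-subunit genes were fitted below 0 (median -0.58), and 46 of 51 large-subunit genes (median -0.44).

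After Rps14 (-0.80 ± 0.24), the smallest p belonged to Rps20 (-0.68 ± 0.24), Rpl22l1 (-0.83 ± 0.30) and Rps27a (-0.75 ± 0.28). These 3 had no overlap between IM-HYA and CT after TMM scaling. Rps27a, made as a fusion with ubiquitin, stood in CT at 1309, 1324 and 1464 CPM. It stood at 492, 1025 and 945 in IM, and 734, 797 and 904 in IM-HYA. Both cast groups lay below CT for this gene in every library on that scale. In deposited TPM, Rps27a was instead lowest in CT 2 (1115), against 1419, 2194 and 1937 in IM and 1994, 2016 and 2355 in IM-HYA. Rpl22l1 stood in CT at 160, 187 and 185 CPM, and in IM-HYA at 87.5, 97.4 and 114. The 5 members fitted higher than in CT were Rpl4 (0.27 ± 0.39), Rpl15 (0.29 ± 0.53), Rpl7l1 (0.05 ± 0.19), Rpl6 (0.08 ± 0.40) and Rpl31 (0.05 ± 0.40, named after its value was seen), each by less than its SE. The joint test over all 3 groups called 0 members (edgeR, background 0.00543%, smallest adjusted p 0.673). At an unadjusted p under 0.05 it gave 13 members (background 6.69%), and DESeq2 called 1, Rps14 (adjusted p = 0.0123, background 0.509%).

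Members known for roles outside translation or in disease gave unequal values. Rps6, the substrate of S6 kinase, stood in CT at 987, 1246 and 572 CPM. It stood at 770, 766 and 556 in IM and 926, 874 and 902 in IM-HYA, with differences of -0.42 ± 0.29 (IM against CT) and -0.05 ± 0.29 (IM-HYA against CT). CT 3 and IM 3 were low and the IM-HYA libraries close together. Rpsa, also known as the laminin receptor, gave -0.26 ± 0.36 and -0.85 ± 0.36 in those comparisons, and Rps19, mutated in Diamond-Blackfan anaemia in humans, -0.58 ± 0.24 in both. Rpl11 gave -0.63 ± 0.28 and -0.20 ± 0.28, Rps3, which also acts in DNA repair, -0.53 ± 0.23 and -0.18 ± 0.23, and Rpl26, a binder of p53 mRNA, -0.40 ± 0.26 and -0.47 ± 0.26. Rplp0, the core of the stalk, gave -0.29 ± 0.27 and -0.50 ± 0.27. None of these passed the adjusted threshold in edgeR.

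The members did not vary as a single unit across libraries. The family mean carried 41.8% of the variance of their centred log2 CPM. Of the other 58.2%, the first principal component held 82.5% and the second 8.82%. That first component ordered the members from Rplp2, Rplp1, Rpl38, Rps27rt, Rps21 and Rpl37a at the top to Rpl5, Rpl6, Rpl4 and Rpl15 at the bottom. Libraries scored on it 0.70 (IM 3), 0.25 (CT 3), 0.21 (IM 2), -0.02 (CT 1), -0.04 (CT 2), -0.10 (IM-HYA 2), -0.29 (IM-HYA 1), -0.30 (IM-HYA 3) and -0.39 (IM 1). IM thus held both extremes, and the group means of 0.06 ± 0.16 in CT, 0.17 ± 0.55 in IM and -0.23 ± 0.11 in IM-HYA overlapped between IM and the others.

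**Figure D5:**
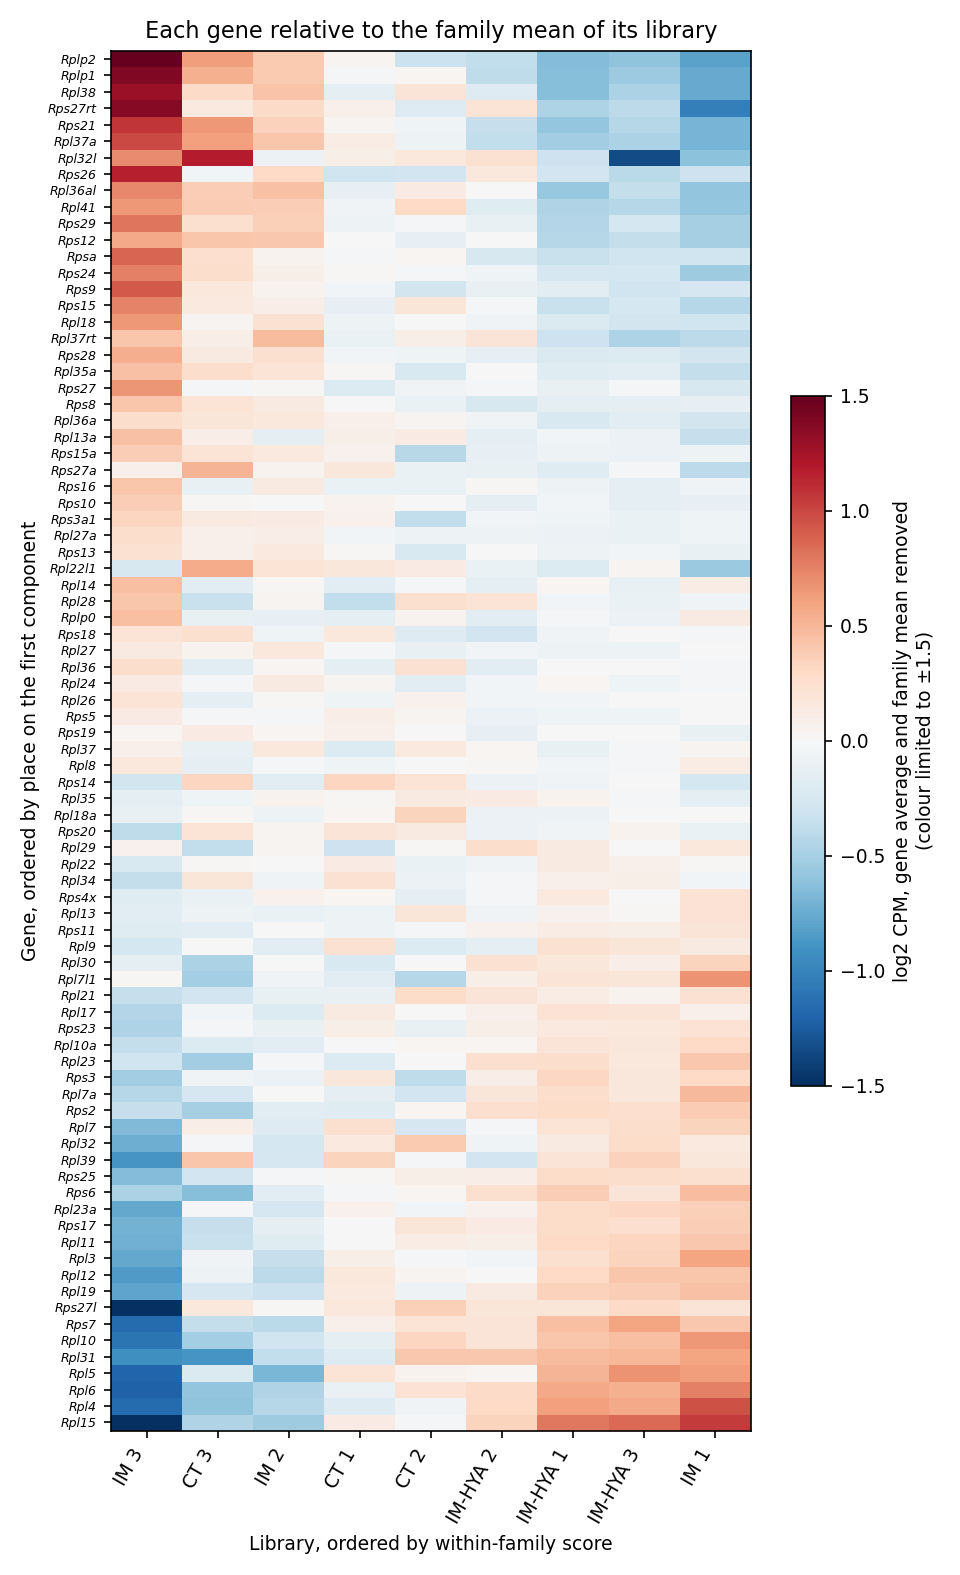
Log2 CPM of each tested ribosomal protein gene after its own average and the library's family mean were removed (colour, limited to ±1.5), with genes ordered by place on the first component and libraries by score. From IM 3 (score 0.70) to IM 1 (score -0.39) the top genes Rplp2 and Rplp1 pass from high to low and the bottom genes Rpl4 and Rpl15 from low to high.

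The size of this shift is clearest in ratios of TPM within a library. Rplp2 stood to Rpl4 as 6.76, 4.78 and 13.4 to 1 in CT, 1.70, 10.2 and 41.0 in IM, and 2.38, 3.62 and 2.52 in IM-HYA. Rplp1 stood to Rpl15 as 33.5, 38.5 and 73.8 in CT, 10.4, 71.2 and 420 in IM, and 13.5, 22.6 and 13.9 in IM-HYA. In both ratios IM-HYA lay below CT in every library, and the 3 IM libraries spread across the whole range. These pairs were chosen after their values were seen, as ends of the order above.

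Several library properties moved with that order, and their part in it was not tested. The 3 libraries with the highest scores had 16.4% (IM 3), 23.2% (CT 3) and 11.3% (IM 2) of counts on Rn18s-rs5. The other 6 had 2.88% to 8.76%, and IM 1, with the lowest score, had the lowest. IM 3 and IM 2 also had the lowest distal Hox levels (-0.68 and 0.36 log2 CPM), and IM 1 the highest (3.93). Total counts were lowest in CT 3 and IM 3.

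Short genes lay towards the top of the order. Place on the component correlated with coding length (log2) at r = -0.48 (Spearman -0.48) and with GC content of the transcript at r = 0.30 over 82 members with both values, which all come from the same 9 libraries. Of the first 10 members, the 9 with a coding length had a median of 276 bases, against 600 for the last 10 and 453 for all 82. Among members the log2 fold change of IM-HYA against CT was higher at greater coding length (r = 0.55), as was that of IM-HYA against IM (r = 0.44), while IM against CT had r = -0.11. Over 14986 tested genes with a coding length these 3 correlations were, in the same order, 0.12, -0.02 and 0.15. Rpl39, among the shortest at 153 bases, stood 68th in the order, so that length did not fix the place of a gene.

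The mRNAs that share the TOP motif but encode other proteins gave 0 of 25 called in each comparison (edgeR). In IM against CT, 24 of 25 were fitted lower (46.4% of all genes), with a median of -0.33, which lies between the members' -0.42 and 0.04 for all genes. The smallest p belonged to Eef1b2 (-0.70 ± 0.23), an exchange factor of elongation, Naca (-0.65 ± 0.22), which guards nascent chains, and Tpt1 (-0.81 ± 0.28), and the smallest adjusted p of the list in edgeR was 0.621, with 3 of 25 at an unadjusted p under 0.05 (3.11% of all genes lower, 4.83% higher). In IM-HYA against IM, 18 of 25 were fitted higher (49.0% of all genes; median 0.21), and in IM-HYA against CT 18 of 25 lower (49.4% of all genes; median -0.20). Their summed level was 14219 to 19727 CPM in CT, 10459 to 15380 in IM and 14329 to 17660 in IM-HYA.

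Ribosome biogenesis genes had a median above 0 in both comparisons with CT. Of 30 such genes, 0 were called in any comparison (edgeR). At an unadjusted p under 0.05 there were 4 in IM against CT, 2 in IM-HYA against IM and 2 in IM-HYA against CT, where all genes gave 4.83% higher and 3.11% lower, 1.27% and 6.39%, and 2.31% and 2.89%. In IM against CT 22 of 30 were fitted higher (53.5% of all genes; median 0.14), and the smallest p belonged to Nop2 (0.55 ± 0.22), Utp15 (0.54 ± 0.22) and Rrp12 (0.79 ± 0.34), all of which act in rRNA processing. In IM-HYA against CT, 20 of 30 were fitted higher (50.6% of all genes; median 0.10). Of 15 tested genes that control ribosomal protein supply, 0 were called. Their medians were 0.04, 0.10 and 0.05 in IM against CT, IM-HYA against IM and IM-HYA against CT. The smallest p in IM-HYA against CT belonged to Mtor (0.53 ± 0.26), Larp1 (-0.46 ± 0.25) and Eif4ebp1 (-0.82 ± 0.51). At an unadjusted p under 0.05 there was 1 gene, Grwd1, in IM-HYA against IM (-0.71 ± 0.26). The 12 integrated stress response genes (medians -0.0029, -0.12 and -0.46), the 10 p53 targets (-0.09, 0.16 and 0.11) and the 10 proliferation markers (-0.0036, 0.07 and 0.11) also gave 0 calls. The stress response list was highest in CT 2, at a mean log2 CPM of 3.14, 4.66 and 2.98 in CT against 3.48, 3.79 and 3.75 in IM-HYA, so that IM-HYA lay above CT 1 and CT 3.

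The 78 nuclear genes of the mitochondrial ribosome, a separate set of proteins, took 0.261% to 0.640% of TPM. In IM against CT 60 of 78 were fitted lower (46.4% of all genes), with a median of -0.21, about midway between all genes and the cytoplasmic set. In IM-HYA against CT 54 of 78 were fitted lower (49.4% of all genes; median -0.19). Their median in IM-HYA against IM was 0.11. The test called 0 (edgeR, smallest adjusted p 0.604 over the 3 comparisons), and the difference between both ribosomes was not tested. At an unadjusted p under 0.05, 10 were lower in IM than CT (3.11% of all genes) and 3 lower in IM-HYA than CT (2.89%). None were higher there (4.83% and 2.31%), and IM-HYA against IM gave 0 (1.27% higher, 6.39% lower). Without overlap, 9 lay lower in IM than CT (4.59%) and 11 higher in IM-HYA than IM (5.39%). In IM-HYA against CT, 29 lay lower (11.3%) and 7 higher (10.8%). Their mean log2 CPM was 5.32, 5.44 and 5.17 in CT, 4.87, 5.35 and 4.88 in IM and 5.11, 5.23 and 5.18 in IM-HYA, so that IM 2 lay within the CT range.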

How the data were processed

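Per the labels' protocols, RNA came from an RNeasy kit and was sequenced on Illumina libraries. The submitters' processing notes name HISAT2 2.1.0 and the build GRCm38 (mm10), besides StringTie 2.1.3b, bcl2fastq 2.20.0 and Trimmomatic, with no order or role. The authors deposited 1 table of 45777 genes with whole read counts, FPKM and TPM per library. The deposited read counts were the input of the main test. The deposited FPKM values entered only alternative tests, and the deposited TPM values, scaled by the authors to a common sum, served to compare levels between genes. No per-sample column went unused (0).

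Genes passing filterByExpr by group (minimum count 10, total 15; 18414 genes) entered 1 edgeR 4.0.16 quasi-likelihood fit (robust, TMM) of all 9 libraries in R 4.3.3, with 6 residual degrees of freedom and Benjamini-Hochberg adjustment over all of them. CPM uses TMM-scaled totals, and log2 CPM a prior count of 2. Principal components, sequence searches and figures used Python 3.11.15. Coding lengths and GC content came from GENCODE transcripts of the same build, matched by RefSeq accession. No replicate pair matched within counting noise (chi-square of at least 43.1 per gene). Correlations of deviations from group means ran from -0.27 to 0.36 for same-numbered libraries of different groups and from -0.50 to 0.35 for differently numbered ones. With 3 libraries per group these values cannot show whether same-numbered libraries are paired.

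Members and gene lists were chosen with earlier results of these data known. Named members were the 4 smallest p per direction where none passed, the highest and lowest by TPM, the stalk genes, paralog pairs, genes with roles outside translation, and those whose sequence is shown; from a list, up to 3 with the smallest p. Rps4l, planned as a paralog of Rps4x, was not analysed here. Alternatives were other scalings, filters and tests (DESeq2 1.42.0, limma 3.58.1), covariates, a replicate block and leaving out libraries. Library totals without scaling, and counts of non-overlapping members under other settings, were chosen after seeing the data. The fit was also run on simulated counts that had less spread than these data and no outlying library, so that run does not bear on the noise or scaling seen here.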

Additional observations from a re-analysis of the deposited data

How the results depend on the processing

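Over 25 alternatives the median log2 fold change of the members ran from -0.58 to -0.00 in IM against CT, from -0.20 to 0.23 in IM-HYA against IM and from -0.56 to 0.18 in IM-HYA against CT. Relative to the median of all genes the ranges were -0.61 to -0.09, -0.18 to 0.18 and -0.59 to 0.03. Limma on log2(FPKM + 1), log2(FPKM + 0.1) and log2(FPKM + 1) with no filter gave medians of -0.0025, -0.0025 and -0.0026 in IM against CT and 0.18, 0.18 and 0.17 in IM-HYA against CT, and the first 2 gave 0.23 and 0.23 in IM-HYA against IM. Library totals only gave -0.0059 and 0.10 in the CT comparisons, with 0, 20 and 0 members not overlapping (lower in IM than CT, higher in IM-HYA than IM, lower in IM-HYA than CT). These values and totals are not rescaled for composition, and the median of all genes moved with them. DESeq2 called 2 members in IM against CT and 1 for any group. Leaving out each library in turn gave 0 to 7 called members in IM-HYA against IM (7 without IM 1) and 0 in the others; non-overlapping members numbered 26 to 50 in IM against CT (50 without CT 3; 6.72% to 15.3% of all genes), 10 to 29 in IM-HYA against IM (29 without IM 2, 26 without IM-HYA 2, 17 without IM 1; 7.18% to 26.8% of all genes, the highest without IM 1) and 54 to 70 in IM-HYA against CT (12.9% to 18.9%), and without CT 2 and IM 3 together 38 in IM against CT (14.2%). A share of protein-coding counts without pancreatic and mitochondrially encoded genes gave 9.49%, 8.60% and 8.15% in CT, IM and IM-HYA, and a share of TPM 14.997%, 16.2% and 16.1%. With a replicate block, 0 members were called, and the medians were -0.43, 0.02 and -0.46.

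Single genes fitted above 0 without passing changed sign as follows (log2), and the cause was not tested. In IM against CT, Rps26 gave -0.25 without IM 3, -0.17 without CT 2 and IM 3 and -0.27 with a colon position covariate. Rplp2 gave -0.054 with limma-voom, -0.064 with the replicate block, -0.64 without IM 3, -0.74 without CT 2 and IM 3 and -0.66 with the position covariate. Rps27rt gave -0.18, -0.19, -0.66, -0.65 and -0.82 in those fits and -0.075 with an 18S share covariate. Rpl7l1 gave -0.11 without CT 3 and -0.01 without IM 1. In IM-HYA against CT the 18S share covariate gave -0.29 for Rpl4, -0.48 for Rpl15, -0.15 for Rpl7l1 and -0.49 for Rpl6. Rpl7l1 also gave -0.10 without CT 3 and -0.00015 without IM-HYA 3, and Rpl6 -0.18 without CT 3 and -0.026 with the position covariate. Over all fits leaving out 1 library, the highest values were 0.63 (Rps26), 0.67 (Rplp2), 0.12 (Rpl7l1) and 0.54 (Rps27rt) in IM against CT and 0.16 (Rpl7l1) and 0.46 (Rpl6) in IM-HYA against CT.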
